A study of Mus musculus with 18 samples.

Results

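The 9 genes described here mark 2 stages of the B lineage, of 36757 genes in the count table. They were chosen by symbol, as *Ms4a1*, *Cd79a*, *Cd79b*, *Pax5* and *Cr2* for B cells (5 genes) and *Jchain*, *Mzb1*, *Tnfrsf17* and *Derl3* for plasma cells (4 genes), and all 9 were found. They were followed in 18 RNA-seq libraries of C57BL/6 mouse colorectal samples, 3 of each genotype in a chronic colitis model, a colitis-associated cancer (CAC) model and organoids grown from CAC tumors. Control mice, labelled wild type, are *RNF138* fl/fl in the study's methods (hereafter WT), and the other mice were labelled *RNF138*-/- (hereafter KO). The promoter that drives deletion is not given in the sources used here, and male and female mice of 6 to 8 weeks were used at the start. Colitis mice drank 2% dextran sulfate sodium (DSS) for 7 days and then water for 14 days, in repeated cycles, and tissue was taken 4 weeks after the last one. CAC mice were also injected with azoxymethane (AOM, a carcinogen, 10 mg/kg) ahead of these cycles, and the organoids were grown in matrigel from tumor fragments after normal epithelium had been detached. All 9 genes are protein-coding and each lies on its own chromosome of the mouse genome (GRCm38, the same build as mm10, GENCODE M21). Among the B cell genes, *Ms4a1* spans 11249675 to 11266241 of chromosome 19, *Cd79a* 24897381 to 24902197 of chromosome 7, *Cd79b* 106311341 to 106314762 of chromosome 11, *Pax5* 44524757 to 44710487 of chromosome 4 and *Cr2* 195136811 to 195176716 of chromosome 1. Among the plasma cell genes, *Jchain* spans 88519809 to 88527891 of chromosome 5, *Mzb1* 35647267 to 35649367 of chromosome 18, *Tnfrsf17* 11313812 to 11320074 of chromosome 16 and *Derl3* 75893413 to 75895941 of chromosome 10.

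B cells carry the antigen receptor on their surface, where CD79A and CD79B pass on its signal. MS4A1, known as CD20, and CR2, the complement receptor CD21, sit in the membrane of mature B cells, and PAX5 is the transcription factor that keeps B cell identity and is switched off when a B cell becomes a plasma cell. Plasma cells secrete antibody: JCHAIN joins IgA and IgM into polymers, MZB1 and DERL3 act in the endoplasmic reticulum on folding and degradation, and TNFRSF17, known as BCMA, is a receptor for the survival factors APRIL and BAFF. In the colon, plasma cells that make IgA fill the lamina propria, while naive B cells collect in lymphoid follicles. CD79A is also retained by many plasma cells.

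Libraries held between 11514716 and 24390082 counts, and levels below are in CPM (counts scaled to a common library size) after TMM scaling over the 18 libraries. *Rnf138*, the targeted gene, was not called lower in the libraries labelled KO, with means slightly lower in colitis and organoids and higher in CAC. It had 19.6 ± 4.95 CPM in WT and 18.8 ± 0.760 in KO colitis (SD, n = 3 in each group throughout), 25.4 ± 3.43 and 43.6 ± 3.41 in CAC, and 48.9 ± 9.79 and 46.9 ± 3.81 in organoids. Its change in CAC (log2 fold change 0.72, edgeR, adjusted p = 0.0426) was under the 2-fold minimum for a call. A count per gene does not show whether an exon was removed, so the genotypes below rest on the labels. Epithelial markers summed to between 4594 and 13523 CPM in every library, with lower sums in KO than in WT CAC (values with the CAC results). The labels do not say whether each library came from a different mouse, so the p-values measure only the spread between these libraries.

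*Jchain* and *Mzb1* were the most abundant of the 9 genes in the inflamed colon, and *Ms4a1*, *Pax5* and *Cr2* the least, with *Cd79a* and *Cd79b* at levels like those of *Derl3* and *Tnfrsf17*. Per kilobase of exon, *Jchain* had 813 CPM in WT colitis, *Mzb1* 36.2, *Cd79a* 13.9, *Derl3* 11.1, *Cd79b* 6.04, *Tnfrsf17* 5.29, *Ms4a1* 0.243, *Pax5* 0.127 and *Cr2* 0.104. *Jchain* ranked between the 16th and the 58th gene by count in the 9 libraries of colitis and WT CAC, and between 678 and 1413 in KO CAC. In bulk tissue, fewer cells of a type and less RNA per cell cannot be told apart. The count of *Mzb1* is the least certain of the 9, because 53.5% of its 50-base windows also occur in SPATA24, which shares 695 exon bases with it on the same strand. This share was 8.31% for *Cd79a*, 7.02% for *Pax5*, which overlaps antisense transcripts, 1.21% for *Ms4a1*, 0.288% for *Jchain* and 0 for the others.

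**Figure D1:**
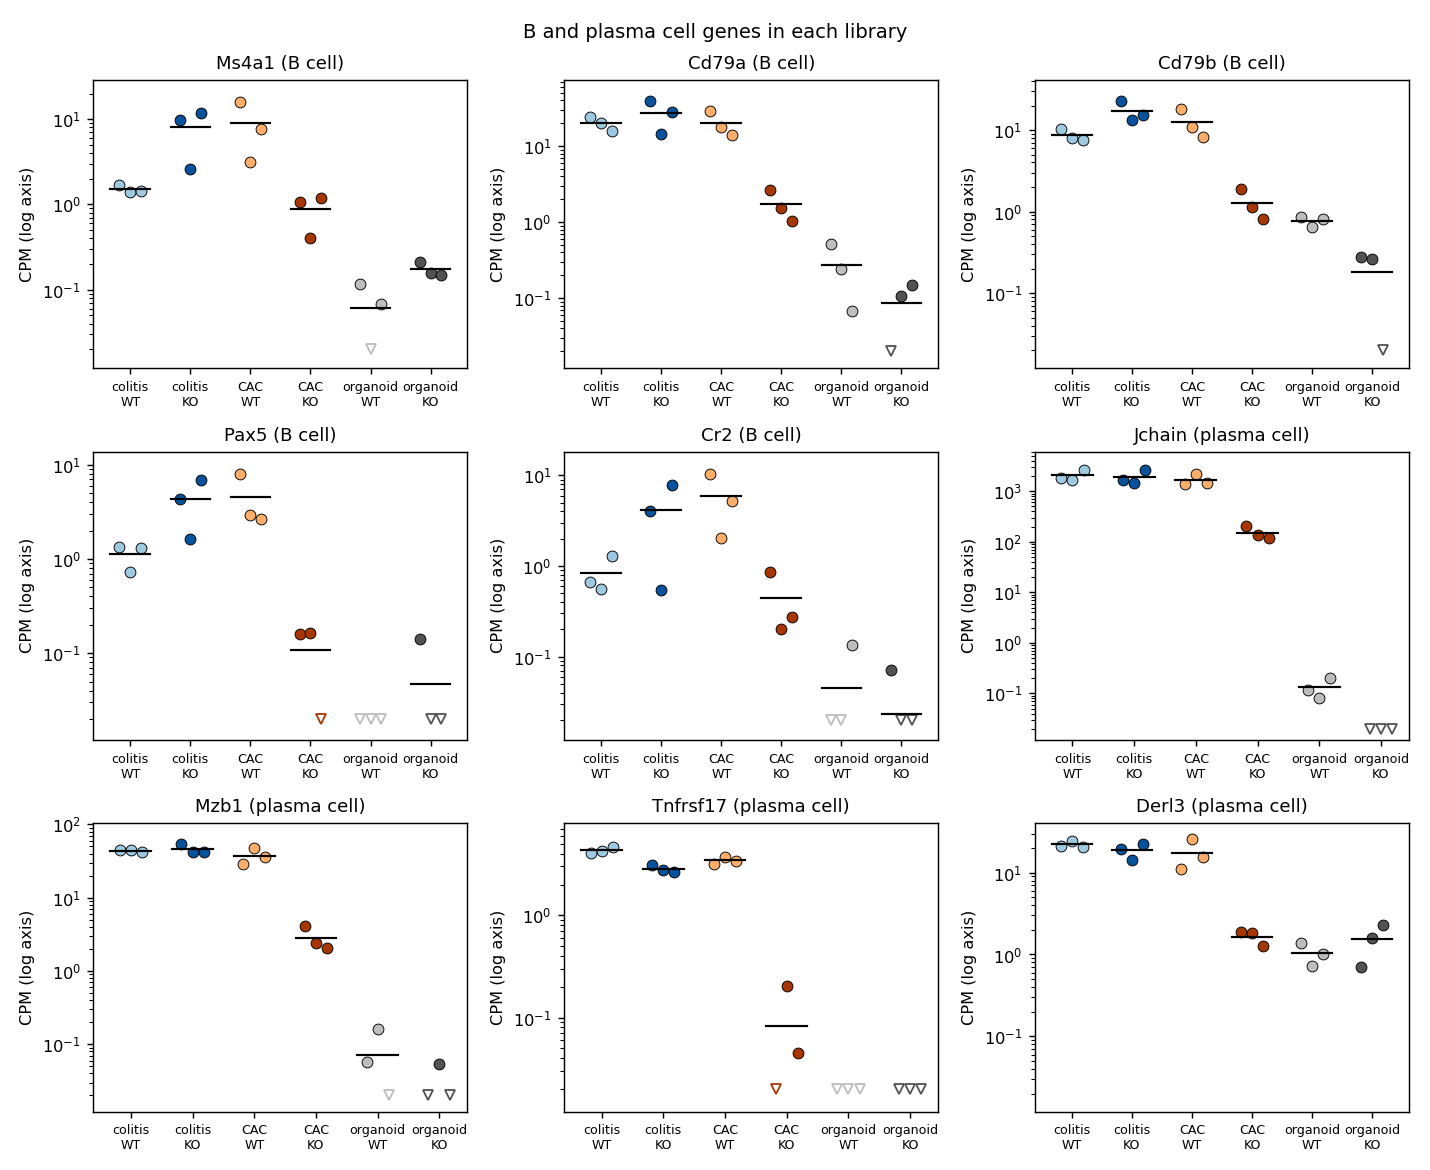
Level of each gene in each of the 18 libraries, as CPM on a log axis, by model and genotype. Points are libraries, bars are means of 3 libraries and open triangles at the foot of a panel are libraries with 0 counts. All 9 genes are lower in the KO CAC libraries than in every WT CAC library, and most are near 0 in organoids.

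In colitis, the means of the 5 B cell genes were higher in the KO libraries and the 4 plasma cell genes had no common direction. None of the 9 passed the test. *Ms4a1* had 1.68, 1.40 and 1.42 CPM in the WT libraries and 9.81, 2.64 and 11.9 in the KO libraries. Every KO library lay above every WT library, with replicate 2 well below the other KO libraries. Its log2 fold change was 2.43 (SE 0.53, edgeR quasi-likelihood test, adjusted p = 0.184). *Pax5* had 1.34, 0.730 and 1.3 CPM in WT and 4.31, 1.62 and 6.91 in KO, without overlap, log2 fold change 1.93 (SE 0.55, edgeR, adjusted p = 0.261). *Cr2* was at 0.670, 0.562 and 1.3 CPM in WT and 4.07, 0.540 and 7.89 in KO. Its KO replicate 2 was the lowest of the 6 libraries, and the log2 fold change was 2.31 (SE 0.83, edgeR, adjusted p = 0.385). *Cd79b* had 10.4, 7.92 and 7.62 CPM in WT against 22.4, 13.2 and 15.1 in KO, without overlap, log2 fold change 0.96 (SE 0.27, edgeR, adjusted p = 0.253). *Cd79a* overlapped between the genotypes, with 24.5, 20.2 and 16.0 CPM in WT and 39.4, 14.6 and 28.3 in KO (log2 fold change 0.43, SE 0.35, edgeR, adjusted p = 0.739).

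For 3 of the 4 plasma cell genes the genotypes overlapped in the same libraries. *Jchain* had 1845, 1693 and 2601 CPM in WT and 1646, 1462 and 2575 in KO, log2 fold change -0.11 (SE 0.29, edgeR, adjusted p = 0.938). *Mzb1* was between 42.5 and 45.3 CPM in WT and between 42.6 and 53.6 in KO (log2 fold change 0.07, SE 0.17). *Derl3* was between 20.6 and 24.5 CPM in WT and between 14.2 and 22.7 in KO (log2 fold change -0.23, SE 0.22). *Tnfrsf17* separated the genotypes, in the opposite direction to the B cell genes, with 4.02, 4.27 and 4.64 CPM in WT and 3.11, 2.76 and 2.63 in KO. Its log2 fold change was -0.61 (SE 0.25, edgeR, adjusted p = 0.462).

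None of the 9 genes was called in colitis, where a call needs an adjusted p below 0.05 together with a change of 2-fold or more, against 0.0902% of the 16623 genes tested. At an unadjusted p under 0.05, 4 of 5 B cell genes were higher (6.08% of all genes) and 1 of 4 plasma cell genes was lower (4.33% of all genes). The genotypes did not overlap for 3 B cell genes, all higher in KO (8.87% of all genes), and for *Tnfrsf17*, lower in KO (8.32%). The median log2 fold change was 1.93 over the B cell genes, -0.17 over the plasma cell genes and 0.02 over all genes tested. Leaving out 1 library moved the B cell median between 1.39 (without KO replicate 3, with 3 B cell genes at an unadjusted p under 0.05) and 2.31 (without KO replicate 2, with 5), and none was called in any of these fits. *Cr2* was at 1.44 without KO replicate 3 (SE 0.75). DESeq2 called *Ms4a1* (adjusted p = 0.000518) and *Pax5* (adjusted p = 0.0345), as did edgeR without the filter on low counts. Over all alternatives the adjusted p was between 0.000518 and 0.659 for *Ms4a1* and between 0.0345 and 0.753 for *Pax5*.

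Other lymphoid genes in colitis were followed through lists of known markers. Of 20 further B cell genes, none was called. At an unadjusted p under 0.05, 8 were higher and 0 lower, with a median log2 fold change of 0.84. Of 11 further plasma cell genes, 1 was lower by the unadjusted p and none higher, with a median of 0.02. Of 10 immunoglobulin constant genes, 5 had higher and 5 lower means in KO, with a median of -0.11, and by the unadjusted p *Ighm* was higher and *Ighg2c*, an IgG heavy chain, lower (448 ± 28.4 and 244 ± 71.8 CPM, without overlap). *Ighm*, the heavy chain of IgM, was at 26.8 ± 6.05 CPM in WT and 69.1 ± 30.2 in KO, whereas *Igha*, that of IgA, was at 6758 ± 625 and 5547 ± 1516. T cell markers were higher in the same KO libraries, and their part in the B cell difference was not tested. Of 10 T cell markers, 7 were higher at an unadjusted p under 0.05, none was called, and their summed level was between 29.0 and 30.7 CPM in WT and between 51.0 and 64.7 in KO. Pan-leukocyte genes also had higher sums in KO, between 237.6 and 250.9 CPM against 151.6 to 174.1 in WT, with 5 of 5 higher in mean, 2 by the unadjusted p and none called. Follicle stroma markers summed to between 158.8 and 161.3 CPM in WT and between 192.3 and 253.3 in KO. *Clu*, which epithelium also makes, rose most in CPM (32.6 in WT and 81.0 in KO). Of 6 tested, 4 had higher and 2 lower means, 3 were higher by the unadjusted p (6.08% of all genes) and none was called. *Cxcl13*, the chemokine that draws B cells into follicles, was at 10.5 ± 3.83 and 23.8 ± 12 CPM. Fat cell markers summed to between 1.91 and 4.25 CPM in WT and between 10.1 and 51.5 in KO, and their part was not tested.

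In CAC, all 9 genes were lower in the KO libraries, and the groups did not overlap for any of them. *Ms4a1* had 16.0, 3.15 and 7.67 CPM in WT and 1.06, 0.405 and 1.18 in KO, 10.5-fold lower (log2 fold change -3.39, SE 0.70, edgeR, adjusted p = 0.0451). *Cd79a* had 29.4, 17.7 and 14.2 CPM in WT and 2.66, 1.54 and 1.04 in KO, 12.1-fold lower (log2 fold change -3.60, SE 0.45, edgeR, adjusted p = 0.0234). WT replicate 1 was the highest library for all 5 B cell genes. *Cd79b* had 17.9, 11.1 and 8.33 CPM in WT and 1.91, 1.13 and 0.815 in KO (log2 fold change -3.32, SE 0.44, edgeR, adjusted p = 0.0252). *Pax5* fell from 7.88, 2.96 and 2.65 CPM to 0.160, 0.162 and 0, which are 3, 4 and 0 counts. Its fitted log2 change, -5.36 (SE 0.84 by edgeR, adjusted p = 0.0300), rests on these few counts, and its dependence on the prior count was not tested. *Cr2* had 10.3, 2.02 and 5.21 CPM in WT and 0.851, 0.202 and 0.272 in KO (log2 fold change -3.79, SE 0.80, edgeR, adjusted p = 0.0471).

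All 4 plasma cell genes were also lower in KO CAC. *Jchain* had 1395, 2182 and 1457 CPM in WT CAC and 204, 134 and 119 in KO CAC. Every KO library was far below the lowest WT library, and the level was 11.4-fold lower (log2 fold change -3.51, SE 0.32, edgeR, adjusted p = 0.0168). *Mzb1* had 28.6, 47.3 and 36.3 CPM in WT and 4.09, 2.39 and 2.04 in KO, 13.7-fold lower (log2 fold change -3.77, SE 0.35, edgeR, adjusted p = 0.0168). *Derl3* had 11.1, 25.7 and 15.5 CPM in WT and 1.86, 1.82 and 1.27 in KO, 10.9-fold lower (log2 fold change -3.45, SE 0.39, edgeR, adjusted p = 0.0198). *Tnfrsf17* had 3.20, 3.72 and 3.41 CPM in WT and 0, 0.202 and 0.0453 in KO. These KO levels are 0, 5 and 1 counts, so its fitted log2 change, -5.22 (SE 0.69 by edgeR, adjusted p = 0.0246), also rests on few counts. WT replicate 2 was the highest library for all 4 plasma cell genes, whereas replicate 1 was highest for the B cell genes.

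All 9 genes were called lower, against 4.83% of the 17752 genes tested in CAC. The medians were -3.60 over the 5 B cell genes, -3.64 over the 4 plasma cell genes and 0.01 over all genes. Groups without overlap in this direction were found for 9 of 9 members and for 20.7% of all genes. The calls rested on each KO library, and those of 3 B cell genes also on WT replicate 1. Without KO replicate 1 or 2, 0 of 9 members and 0 of all genes were called by edgeR, and without KO replicate 3, 2 members were (*Jchain* and *Mzb1*). Without WT replicate 1, *Ms4a1* (adjusted p = 0.0771), *Pax5* (0.0518) and *Cr2* (0.0829) lost their calls by edgeR, and without WT replicate 2 or 3 all 9 were called. In the fits without a KO library all 9 kept an unadjusted p under 0.05, which 19.7% of genes had in this direction with all libraries, and 3044 genes without KO replicate 1 and 2475 without KO replicate 2 had an unadjusted p below 0.05 with a 2-fold change or more. In all 6 fits that left out 1 library, the B cell median was between -4.03 and -3.10 and the plasma cell median between -3.96 and -3.42. Single genes moved more: *Tnfrsf17* was at -6.82 without KO replicate 2, which holds 5 of its 6 KO counts, *Cr2* at -4.64 without KO replicate 1 and -3.10 without WT replicate 1, *Ms4a1* at -2.67 and *Pax5* at -4.70 without WT replicate 1. DESeq2 called 9 of 9, and over all alternatives the adjusted p of *Jchain* was between 4.14e-24 and 0.114.

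The promoters of 1 B cell gene and of 2 plasma cell genes are shown, with the letters that match a searched motif in capitals. RefSeq (GRCm38.p6) gives windows of 300 bases, 250 before the start and 50 after it, for 6 of the 9 members. The motifs found among them were CAGGTG, the E-box bound by E2A, a factor of B cell development, and ACGTG, the core bound by XBP1 and ATF6, factors of the secretory stress response. The searches covered both strands.
Cd79a promoter, chr7:24897247-24897546, plus strand: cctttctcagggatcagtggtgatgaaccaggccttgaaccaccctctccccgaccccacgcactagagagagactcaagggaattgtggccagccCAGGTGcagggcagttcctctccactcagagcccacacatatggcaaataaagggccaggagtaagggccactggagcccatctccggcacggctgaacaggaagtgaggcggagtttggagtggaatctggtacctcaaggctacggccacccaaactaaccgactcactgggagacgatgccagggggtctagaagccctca
Jchain promoter, chr5:88527848-88528147, minus strand: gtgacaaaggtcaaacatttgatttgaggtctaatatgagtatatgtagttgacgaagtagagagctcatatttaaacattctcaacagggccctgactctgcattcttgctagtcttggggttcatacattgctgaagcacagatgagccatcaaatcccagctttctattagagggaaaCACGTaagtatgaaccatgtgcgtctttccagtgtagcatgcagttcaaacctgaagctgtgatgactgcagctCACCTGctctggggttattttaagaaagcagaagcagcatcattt
Derl3 promoter, chr10:75893148-75893447, plus strand: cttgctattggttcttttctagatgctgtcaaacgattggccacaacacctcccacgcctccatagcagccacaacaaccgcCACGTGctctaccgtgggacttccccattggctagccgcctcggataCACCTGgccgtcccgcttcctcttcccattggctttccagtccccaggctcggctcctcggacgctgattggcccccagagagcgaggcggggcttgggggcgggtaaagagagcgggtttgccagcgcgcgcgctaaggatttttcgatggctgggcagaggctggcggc
CAGGTG was found in *Cd79a* (154 bases before the start), *Cr2* (88 before), *Derl3* (121 before) and *Jchain* (5 after), and in 20.2% of all 32851 windows. ACGTG was found in *Derl3* (168 before on the minus and 167 before on the plus strand of the gene, as 1 palindrome), *Jchain* (69 before) and *Pax5* (142 before), and in 19.6% of windows. The octamer ATGCAAAT, bound by OCT factors, and CCCNNGGG, the core bound by EBF1, were in none of the 6 windows, against 1.74% and 13.7% of all windows. The *Tnfrsf17* window held none of the searched motifs. RefSeq starts can differ from the gene spans given above, and the *Pax5* window (44710645 to 44710944) lies wholly outside its span. The matches are descriptions of letters in a window and not of binding, and their part in the KO CAC difference was not tested.

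Among wider B lineage genes in CAC, all those called were lower, but not every gene on the lists was. Of 20 further B cell genes, 8 were lower and 0 higher, with a median log2 fold change of -2.77 and all 20 values negative. Some of these genes are also expressed in organoids (values with the organoid results). *Tnfrsf13c*, the BAFF receptor, fell by 4.28 on the log2 scale, *Spib*, a transcription factor of the lineage, fell by 3.92, and *Cxcr5*, the follicle homing receptor, fell by 3.67. Of 7 germinal centre genes tested, 2 were lower, among them *Rgs13*, a regulator of chemokine signalling (fell by 4.18). Unlike the B cell members, *Rgs13* was not higher in KO colitis (log2 fold change -0.13), and which cells of the CAC samples express it was not tested. Of 11 further plasma cell genes, 6 were lower, including *Irf4*, which directs plasma cell differentiation (fell by 3.09), *Ccr10*, which guides IgA plasma cells to the colon (fell by 2.97), and *Tnfrsf13b*, known as TACI (fell by 2.39). Genes of the germinal centre and further plasma cell lists with higher means in KO, none called, were *Sdc1*, a plasma cell marker that epithelium also makes (log2 fold change 0.47, 287 CPM in WT and 410 in KO, without overlap), *Tent5c* (0.39) and the germinal centre genes *S1pr2* (0.55, without overlap) and *Bcl6* (0.38). Of 10 immunoglobulin constant genes, 5 were lower, with a median of -3.27. *Igha* went from 5812 ± 934 to 470 ± 134 CPM, *Igkc*, the kappa light chain, from 3553 ± 1161 to 365 ± 161, and *Iglc2*, a lambda light chain, fell by 5.79 on the log2 scale. Of 7 B cell survival and IgA transport genes tested, 3 were lower. They were *Tnfrsf13c* and *Tnfrsf13b*, already counted in the lists above, and *Pigr*, the epithelial receptor that carries polymeric IgA into the lumen (fell by 1.34). All 5 with lower means had an unadjusted p under 0.05 (19.7% of all genes). The 2 with higher means were *Il6*, a cytokine that sustains plasma cells (0.26 CPM in WT and 1.16 in KO, without overlap and not called), and *Tgfb1* (log2 fold change 0.54). Of 10 secretory capacity genes, which every secretory cell uses, 1 was lower, with a median of -0.64.

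Markers of other cells moved by different amounts in the same CAC libraries. Of 9 T cell markers tested, 0 were called and 1 was lower at an unadjusted p under 0.05, with summed levels of 27.6 to 50.2 CPM in WT and 17.3 to 39.0 in KO. *Cd8a* was at 4.12 ± 3.27 and 0.431 ± 0.227 CPM (edgeR, adjusted p = 0.0503). Of 5 pan-leukocyte genes, 1 was lower, with summed levels of 159.4 to 237.9 and 120.8 to 158.7 CPM, and 0 of 8 myeloid markers were called (3 higher by the unadjusted p), with sums of 302.8 to 643.5 and 632.7 to 1000 CPM. Follicle stroma markers summed to 156.5 to 526.2 CPM in WT and 349.2 to 848.6 in KO, a sum carried by *Clu*, which epithelium also makes (283 CPM in WT and 461 in KO). Of 6 tested, 0 were called, 4 had lower means in KO (1 by the unadjusted p, *Enpp2*, 14.2 and 5.94 CPM), and the median was -0.64, with *Cxcl13* at 16.6 ± 6.63 and 9.75 ± 3.80 CPM. All 5 smooth muscle markers were lower. Their median log2 fold change was -5.28, and their sum was between 2505 and 8374 CPM in WT and between 112.7 and 241.2 in KO, with *Des* (fell by 6.54) and *Myh11* (fell by 5.03) among them. Both fat cell markers tested were lower, and the sum of the list was between 20.4 and 37.5 CPM in WT and between 0.688 and 1.28 in KO, where *Adipoq* and *Lep* were at 0. Epithelial markers summed to between 6574 and 13523 CPM in WT and between 5697 and 6296 in KO, without overlap. Of 8, 1 was called, *Cdx2*, an intestinal transcription factor (15.4-fold lower, log2 fold change -3.95, SE 0.81). By the unadjusted p, 4 were lower and 1 higher, including *Krt20*, a keratin of differentiated cells (-3.24, SE 0.83), and *Lgr5*, a stem cell marker (2.74, SE 0.78). The part of muscle, fat and epithelial content of the samples in the B lineage difference was not tested.

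**Figure D2:**
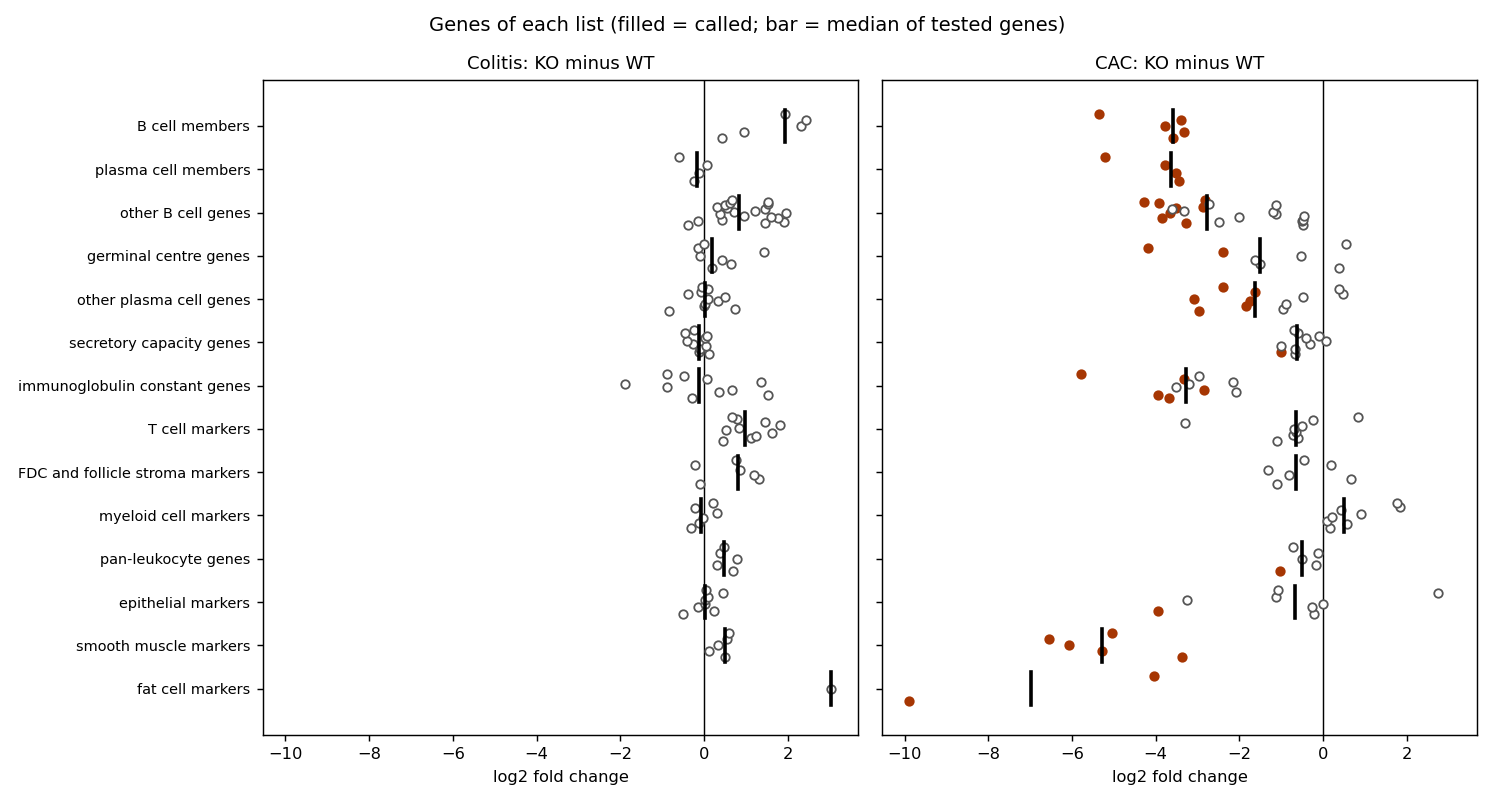
Log2 fold change of each gene of 14 lists between KO and WT in colitis (left) and CAC (right). Filled points passed the test and the fold minimum, open points did not, and black bars are medians of the tested genes. In colitis no point is filled. In CAC the medians of the members, immunoglobulin, smooth muscle and fat lists lie between -6.97 and -3.27, and those of the T cell and myeloid lists at -0.65 and 0.49.

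Against *Ptprc*, the pan-leukocyte gene CD45, 3 members were also lower in KO CAC than in WT CAC. These ratios are of counts within a library, not per length. The ratio of *Jchain* to *Ptprc* was between 20.4 and 46.8 in WT CAC and between 3.80 and 4.89 in KO CAC, without overlap. That of *Cd79a* to *Ptprc* was between 0.289 and 0.429 in WT and between 0.0404 and 0.0639 in KO, again without overlap. That of *Ms4a1* to *Ptprc* was between 0.0676 and 0.234 in WT and between 0.0115 and 0.0456 in KO, which overlaps with WT colitis (0.0271 to 0.0424).

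The models were compared within each genotype, in a fit of the 12 tissue libraries. Sequencing run and treatment date are not given in the labels, so a batch between models and the model itself cannot be told apart. In WT mice, *Ms4a1* was higher in CAC than in colitis (log2 fold change 2.57, SE 0.66, edgeR, adjusted p = 0.0233), as were 8.41% of the 18843 genes tested, and it was the only member called. *Cr2* (2.79, SE 0.88, edgeR, adjusted p = 0.0535) and *Pax5* (2.00, SE 0.66, edgeR, adjusted p = 0.0611) were of like size and missed the threshold, though all WT CAC libraries lay above all WT colitis libraries, as for *Ms4a1* and 18.4% of all genes. DESeq2 called these 3 genes. *Cd79a* (0.01, SE 0.40) and *Cd79b* (0.53, SE 0.35) overlapped, and the 4 plasma cell genes had log2 fold changes between -0.34 and -0.23, none called. No member was called by edgeR without any 1 of the 3 WT colitis libraries or without WT CAC replicate 1. Over the 12 fits without 1 library, the log2 fold change was between 1.83 and 2.98 for *Ms4a1*, 1.32 and 2.26 for *Pax5*, and 2.07 and 3.24 for *Cr2*. Of 20 further B cell genes, 4 were higher in WT CAC, among them *Cxcr5* (1.79, SE 0.51) and *Tnfrsf13c* (1.33, SE 0.40). Of 4 fat cell markers tested in the same comparison, 1 was called higher and all 4 had an unadjusted p under 0.05, with a median of 3.63, and their part was not tested. Of 11 further plasma cell genes, 1 was higher and *Ccr10* was lower (-1.25, SE 0.29).

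In KO mice all 9 members were lower in CAC than in colitis, as were 19.6% of all genes tested. *Jchain* fell by 3.64 (SE 0.34, edgeR, adjusted p = 3.27e-05), *Mzb1* by 4.03 (SE 0.29, edgeR, adjusted p = 9.91e-06) and *Cd79a* by 3.98 (SE 0.46, edgeR, adjusted p = 9.26e-05) on the log2 scale. The smallest change was that of *Ms4a1*, which fell by 3.21 (SE 0.68), and the largest that of *Pax5*, which fell by 5.24 (SE 0.83). *Cr2* fell by 3.26 (SE 0.92) although its groups overlapped, since KO colitis replicate 2 had 0.540 CPM and KO CAC replicate 1 had 0.851. The other 8 did not overlap, as for 27.9% of all genes. All 9 were called whichever of the 12 libraries was dropped. Of 20 further B cell genes 15 were lower, and of 10 T cell markers 5 were. All 5 smooth muscle markers (median log2 fold change -6.08) and all 4 fat cell markers tested (median -5.75) were also called lower, and their part was not tested.

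The genotype difference in CAC minus that in colitis was negative and past both thresholds for 9 of 9 members, against 7.23% of all genes called in this direction. It was -5.77 for *Ms4a1* (SE 0.95, edgeR, adjusted p = 0.00629), -7.24 for *Pax5* (SE 1.06, edgeR, adjusted p = 0.00409) and -6.05 for *Cr2* (SE 1.27, edgeR, adjusted p = 0.0170). It was -3.99 for *Cd79a* (SE 0.60) and -4.25 for *Cd79b* (SE 0.53). The plasma cell genes had -3.35 for *Jchain* (SE 0.45, edgeR, adjusted p = 0.00333), -3.80 for *Mzb1* (SE 0.37), -4.56 for *Tnfrsf17* (SE 0.70) and -3.17 for *Derl3* (SE 0.44). The median was -5.77 over the B cell genes and -3.57 over the plasma cell genes. Leaving out 1 of the 12 libraries at a time left 8 or 9 members called. *Cr2* kept its call in 9 of these 12 fits (edgeR, adjusted p up to 0.0537), and *Tnfrsf17* was between -6.17 and -4.08. In the same contrast 5 of 5 smooth muscle markers (median -5.57), 4 of 4 fat cell markers tested (median -9.38) and 3 of 10 T cell markers (median -1.60) were called in this direction, and their part was not tested. This contrast and the comparisons of models within a genotype use the same 12 libraries as the genotype comparisons and are not independent of them.

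**Figure D3:**
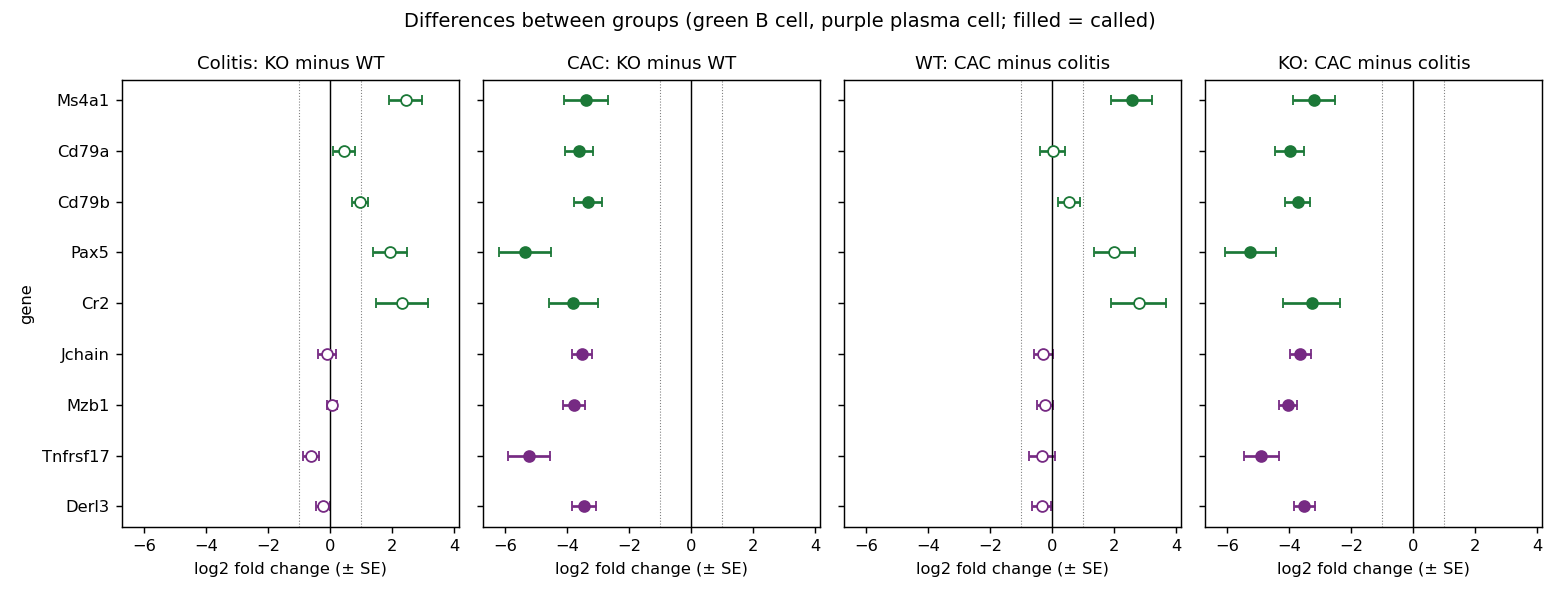
Log2 fold change with its standard error for the 9 genes in 4 comparisons, B cell genes in green and plasma cell genes in purple. Filled points passed the adjusted p and the 2-fold minimum (dotted lines). Both sets sit left of 0 in the 2 comparisons that hold KO CAC, whereas only B cell genes sit right of 0 beyond the dotted line in colitis and between models in WT.

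The balance of the sets was described by a score, the mean log2 CPM of the 5 B cell genes minus that of the 4 plasma cell genes, with no test. It was -4.11 ± 0.21 in WT colitis, -2.55 ± 0.80 in KO colitis, -2.42 ± 1.10 in WT CAC and -2.20 ± 0.43 in KO CAC. WT colitis was the lowest group, with libraries between -4.32 and -3.89, and all 9 other tissue libraries lay above it. KO colitis replicate 2 (-3.47) and WT CAC replicate 2 (-3.41) were closest to it. In KO CAC both scores were low, with a B cell score of -0.44 ± 0.52 against 3.02 ± 0.77 in WT CAC and a plasma cell score of 1.76 ± 0.26 against 5.44 ± 0.35. Both scores of every KO CAC library were below those of every WT CAC library. In colitis the B cell score was 1.65 ± 0.20 in WT and 2.98 ± 0.98 in KO, where replicate 2 (1.85) was just above the highest WT library (1.81), and the plasma cell score was 5.76 ± 0.07 and 5.54 ± 0.19.

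**Figure D4:**
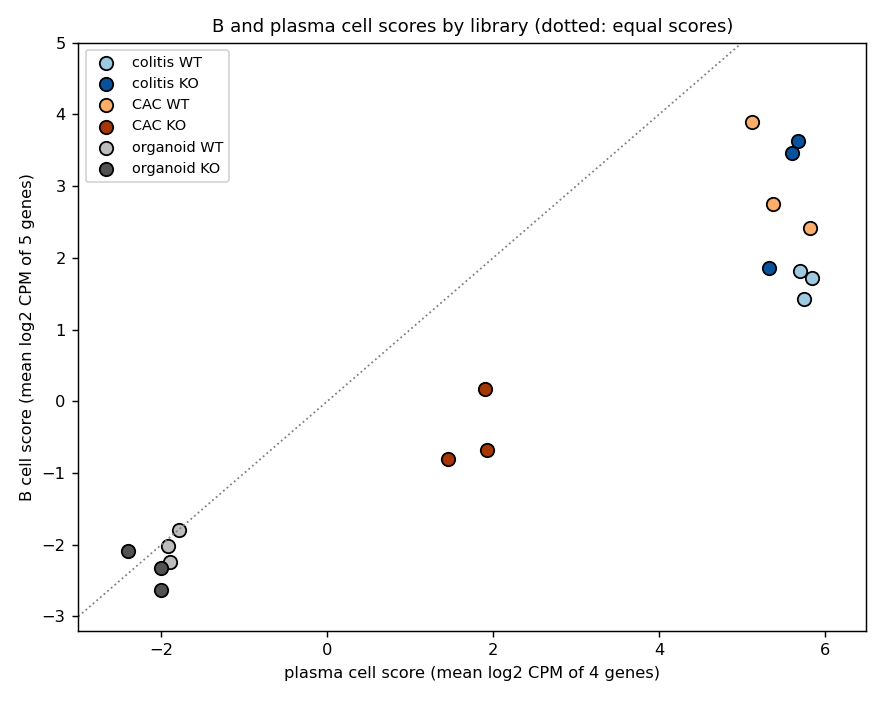
B cell score against plasma cell score in the 18 libraries, both in log2 CPM, with equal scores on the dotted line. WT colitis, KO colitis and WT CAC share plasma cell scores between 5.13 and 5.84 and spread in B cell score, KO CAC lies lower on both axes, and organoids lie lowest.

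Ratios of counts within a library need no scaling between libraries. The ratio of *Jchain* to *Mzb1* was between 40.2 and 48.9 in WT CAC and between 49.8 and 58.6 in KO CAC, without overlap, and between 30.7 and 61.2 over the 6 colitis libraries. *Jchain* to *Derl3* was between 69.1 and 126.5, and *Igha* to *Jchain* between 1.95 and 4.41, with overlapping groups. Among the B cell genes, *Ms4a1* to *Cd79a* was between 0.0683 and 0.0888 in WT colitis, between 0.181 and 0.421 in KO colitis, between 0.178 and 0.545 in WT CAC and between 0.263 and 1.13 in KO CAC. WT colitis did not overlap with any other group in this ratio. *Cd79a* to *Cd3e*, a T cell gene, was between 6.00 and 22.5 in the 9 other libraries and between 0.745 and 1.92 in KO CAC.

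**Figure D5:**
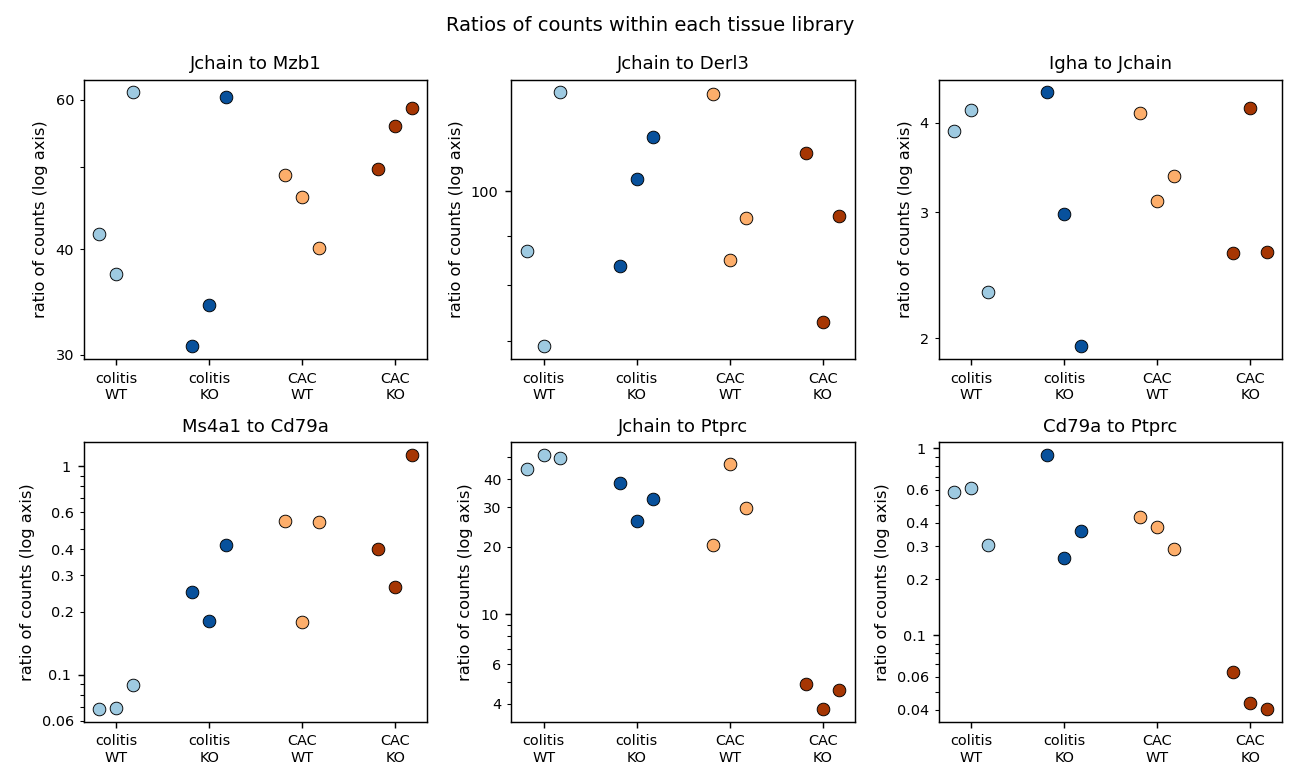
Ratios of counts of 2 genes within each of the 12 tissue libraries, on log axes. *Jchain* to *Derl3* and *Igha* to *Jchain* overlap between the groups, *Jchain* to *Mzb1* is higher in every KO CAC than in every WT CAC library, *Ms4a1* to *Cd79a* is lowest in WT colitis, and *Jchain* to *Ptprc* and *Cd79a* to *Ptprc* are lowest in KO CAC.

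Likeness to each score was described by Pearson's r over the 12 tissue libraries, among 15813 genes with a mean of at least 1 CPM, leaving out members and immunoglobulin genes. These libraries share the 4 groups, so r mostly follows differences between groups. Among the 5 genes most like the B cell score were *Tnfrsf13c* (r = 0.981), *Cxcr5* (0.976), *Bank1* (0.973), a B cell scaffold protein, and *Fcrla* (0.966), an Fc receptor-like protein of B cells. All 5 are on the list of further B cell genes. Those most like the plasma cell score were *Col4a6* (0.983), a basement membrane collagen, *Chrm2* (0.982), a muscarinic receptor of smooth muscle, *Optc* (0.980), *Kcnd3* (0.974), a potassium channel, and *Dbh* (0.973), an enzyme of noradrenaline synthesis. None of these 5 is on a B cell or plasma cell list. The scores had an r of 0.824 with each other.

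In organoids the members were close to the limit of detection. *Jchain*, with 1395 to 2182 CPM in WT CAC tissue, had 2, 1 and 3 counts in the WT organoid libraries and 0 in each KO library. *Tnfrsf17* had 0 counts in all 6, and WT CAC was at least 105-fold higher, taking 3 counts over the 6 libraries (0.0329 CPM) as the limit that a count of 0 allows, for counting error only. Over the 6 libraries, *Ms4a1* had 11 counts, *Cd79a* 17, *Pax5* 2, *Cr2* 3 and *Mzb1* 4. *Derl3* had 119 counts and was found in every library, with 1.38, 0.718 and 1.01 CPM in WT and 0.702, 1.59 and 2.31 in KO, 13.4-fold under WT CAC. In KO CAC tissue *Derl3* had 1.86, 1.82 and 1.27 CPM, within the organoid range. How much of that level came from other cells was not tested. The organoid genotypes overlapped (log2 fold change 0.50, SE 0.47, edgeR, adjusted p = 0.429). *Cd79b* had 44 counts, with 15, 8 and 12 in WT and 4, 5 and 0 in KO. It was called lower in KO (log2 fold change -2.02, SE 0.64, edgeR, adjusted p = 0.0406), as were 7.04% of the 15294 genes tested, and lost the call with any 1 of the 6 libraries left out and with DESeq2. Its adjusted p was between 0.0328 and 0.0900 over the alternatives. In KO CAC tissue *Cd79b* had 1.91, 1.13 and 0.815 CPM, the lowest of which was under WT organoid replicate 1 (0.865). In organoids the other 7 members did not pass the filter on low counts. Immunoglobulin constant genes summed to between 0.900 and 3.51 CPM. The 20 further B cell genes summed to between 141.1 and 182.2 CPM in WT and between 116.8 and 138.2 in KO organoids. Their sum in KO CAC tissue was between 104.4 and 121.0 CPM. *Blnk* alone had 128 CPM in WT and 65.2 in KO organoids. Pan-leukocyte genes summed to 11.6 to 23.7 CPM in WT organoids and 61.8 to 76.8 in KO organoids, all 3 tested being higher, and *Ighm* in WT and *Cd3e* were at 0. Myeloid markers summed to 23.8 to 34.6 CPM in WT and 100.5 to 151.8 in KO organoids, with 3 of 6 called higher, among them *Lyz2* (6.05 and 97.7 CPM), and *S100a8* called lower. The closing section gives the number of all genes called in organoids, in either direction. Y-linked genes were at 0 in the 3 WT organoid libraries and detected in the 3 KO libraries, so in organoids sex and genotype cannot be told apart.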

How the data were processed

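RNA was sequenced in 18 libraries, and all were used. The authors deposited read counts per gene as whole numbers without normalization (36757 genes), and a second table of their own fold changes and p-values (5098 rows), not used here. The submitters' processing notes name STAR 2.6.1d, HTSeq 0.11.2, DESeq2 and mm10, and the paper names Cufflinks and Gencode v.M8. Whether counting used strand is not given in the sources used here, so antisense reads on *Pax5* cannot be separated. Identifiers were matched to GENCODE M21 of the same build (99.8%).

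Counts were analysed with edgeR 4.0.16 in R 4.3.3: TMM, filterByExpr by group, glmQLFit and glmQLFTest, with Benjamini-Hochberg adjustment over all genes tested, per model or in 1 fit of the 12 tissue libraries between models. A call is an adjusted p below 0.05 together with a change of 2-fold or more. Scores are mean log2 CPM with a prior count of 2. DESeq2 1.42.0 and the other settings named in the closing section were alternatives. The fits were tested on simulated data. Total counts were between 11514716 and 24390082, and replicates differed by chi-square per degree of freedom of 7.44 to 143.5, so none is a copy.

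The members and the 17 gene lists were chosen with earlier results of these data known. Named genes are the members, from each list at most 4 called genes with the largest change (fewer are printed here), uncalled genes of a list by smallest p, and the 5 genes most like each score. A gene that the rule gives is not reported here. *Ighm*, *Igha*, *Cd8a*, *Cd3e*, *Cxcl13* and *Rgs13* in comparisons where the rule does not give them, and *Ptprc*, *Sdc1*, *Tent5c*, *S1pr2*, *Bcl6*, *Krt20*, *Lgr5*, *Clu*, *Enpp2*, *Ighg2c*, *Lyz2*, *S100a8*, *Il6* and *Tgfb1*, were chosen after their values were seen. Motifs were searched in RefSeq promoter windows.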

Additional observations from a re-analysis of the deposited data

Results flagged for a closer look

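The genotype difference (KO minus WT) differed between CAC and colitis by an interaction test in edgeR for each member, with KO lower relative to WT in CAC. On the log2 scale the difference was -5.77 for *Ms4a1*, -3.99 for *Cd79a*, -4.25 for *Cd79b*, -7.24 for *Pax5* and -6.05 for *Cr2*. It was -3.35 for *Jchain*, -3.80 for *Mzb1*, -4.56 for *Tnfrsf17* and -3.17 for *Derl3*.

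Other named genes differed between the models in the same direction and by the same test. Among genes of the B cell and germinal centre lists the value was -5.58 for *Cxcr5*, -5.76 for *Tnfrsf13c*, -4.49 for *Spib*, -4.69 for *Bank1*, -4.01 for *Fcrla* and -3.99 for *Rgs13*. Among plasma cell and immunoglobulin genes it was -3.14 for *Irf4*, -2.08 for *Ccr10*, -2.30 for *Tnfrsf13b*, -3.34 for *Igha*, -3.35 for *Igkc* and -4.83 for *Iglc2*. Markers of other cells had -5.04 for *Cd8a*, -5.57 for *Myh11* and -7.03 for *Des*. Their part in the members' difference was not tested.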

How the results depend on the processing

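Replicates number 3 a group, and the counts of genes called moved with most settings. In colitis, where edgeR called 0 members and 15 genes, DESeq2 called 2 members and 326 genes, edgeR with no filter on low counts 2 and 354, a replicate block 89 genes, leaving out immunoglobulin genes 24, and leaving out 1 library 0 to 147. In CAC (9 members, 954 genes) DESeq2 called 2660 genes, no filter 1641 and 1 fit of all 18 libraries 2834, and leaving out 1 library gave 0 to 9 members and 0 to 1136 genes. In organoids (1 member, 2292 genes) DESeq2 and the replicate block called 0 members, 1 fit of all libraries 2, leaving out 1 library 0 members and 1515 to 3130 genes, and 5436 genes passed with no fold minimum. Between models in WT (1 member, 2156 genes) DESeq2, no filter and 1 fit of all libraries called 3 members, the replicate block and leaving out immunoglobulin genes 2, and leaving out 1 library 0 to 3 members and 1105 to 2751 genes. For the difference between genotype effects (1571 genes), DESeq2 called 2511, and leaving out 1 library 596 to 2139. The cause of these moves was not tested. Values near 0 changed sign: in colitis, over fits without 1 library, *Jchain* was between -0.41 and 0.098 (above 0 without WT replicate 3 and, at 0.042, without KO replicate 2) and *Mzb1* between -0.045 and 0.12 (below 0 without KO replicate 1). Between models in WT, *Cd79a* was at -0.0070 with no filter, -0.042 with the replicate block, and between -0.34 and 0.22 without 1 library (below 0 without WT colitis replicate 3 or WT CAC replicate 1). The replicate block is only a shared number here (3 of 9 same-numbered pairs correlated over 0.1), and it changed none of the 9 calls in CAC. A covariate for sex could not be fitted, since Y-linked genes were detected in all 12 tissue libraries and followed genotype in organoids. *Ms4a1* in KO organoids was at 0.139 CPM without TMM scaling. Depth limits *Pax5* and *Tnfrsf17* in KO CAC and 7 members in organoids.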
